A study of Mus musculus with 4 samples.

Results

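The Foxp2/Gata3 cluster is a group of 54 neuronal nuclei of the mouse posterior hindbrain in which Tal1 had its highest level among 134 neuronal clusters. Its members were the nuclei that passed the quality filter, were annotated as neurons and carried this cluster in the deposited annotation, which names each cluster after its strongest markers. The 54 nuclei made up 0.431% of the 12539 neurons and belonged to a series of 39461 nuclei. They were compared with the Tal1/Nell1 cluster (113 nuclei), the second in Tal1 level, and with all 12485 other neurons.

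The nuclei came from a dissected portion of hindbrain that holds the area postrema and the nucleus of the solitary tract. Mice of both groups, male and female, aged 12 to 20 weeks and on a C57BL/6 background, received clozapine N-oxide (CNO) at 3 mg per kg and were killed 1 h later without access to food. AgRP-Gq;POMC-Gi mice carried AgRP-IRES-Cre+/-, hM3DGq fl/-, POMC-Dre+/- and hM4DGi fl/-, so that CNO excites cells that expressed Cre from the Agrp locus and inhibits cells that expressed Dre under Pomc control. Controls are given as WT in the labels, whereas the methods describe offspring of the same cross that carry both receptor alleles and neither recombinase. Each group had 2 libraries, and mice of one condition were pooled, so p-values measure only the spread between libraries. Which mice entered which library is not stated, so how far this spread reflects mice is not known. The 2 AgRP-Gq;POMC-Gi libraries held the sexes in different shares, as given below, so their spread was not technical alone.

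TAL1 is a basic helix-loop-helix transcription factor known from blood formation, where it acts in a complex with E proteins, LIM-domain-only proteins, LDB1 and GATA factors. In the developing spinal cord and hindbrain the same partners, TAL1, GATA2 and GATA3, specify an inhibitory class of interneurons, the V2b cells. Neurons that contact the cerebrospinal fluid (CSF) also express GATA2, GATA3 and TAL1, together with the channel PKD2L1.

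Of the 54 nuclei, 13 and 17 came from control replicates 1 and 2, and 19 and 5 from the AgRP-Gq;POMC-Gi libraries. Their summed unique molecular identifiers (UMIs) were 137638, 137821, 165554 and 51652 in the same order, and levels are counts per 1e+06 UMIs (CPM), so 1 UMI was worth 7.27, 7.26, 6.04 and 19.4 CPM. AgRP-Gq;POMC-Gi replicate 2 was thus the least precise, and each level is given for every library in this order. The median nucleus had 8188 UMIs (range 3667 to 22166), against 8704 in other neurons, and 3307 genes. No barcode of the Foxp2/Gata3 cluster occurred in more than 1 library, whereas 168 did among all nuclei. AgRP-Gq;POMC-Gi replicate 2 stood apart in the X-inactivation transcript Xist, which had a UMI in 78 of its 3632 other neurons, against 1649 of 2457, 1311 of 2719 and 2374 of 3677 in the other 3 libraries, while a Y-linked gene had a UMI in 3243. In the Foxp2/Gata3 cluster, Xist was found in 2, 11, 15 and 1 nuclei, a Y-linked gene in 10, 3, 2 and 3, and both in 0, so the libraries held the sexes in different shares.

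Tal1 (chr4:115056426-115071755, plus strand, GRCm38) had 43.6, 79.8, 18.1 and 58.1 CPM in the Foxp2/Gata3 cluster, from 23 UMIs in all (mean 49.9 ± 25.9, SD, n = 4 libraries). The level in other neurons was 1.03 CPM, and that of the cluster was higher in all 4 libraries (log2 ratio of mean CPM plus 1, 4.65, or 3.19 with 5 CPM added instead). A Tal1 UMI was found in 18 of 54 nuclei (33.3%, exact 95% interval 21.1 to 47.5%), in 105 of 12485 other neurons (0.841%) and in 7 of 16816 oligodendrocytes, which should lack it. These intervals cover counting error only. Nuclei were then thinned to 2000 UMIs, which left out 0 nuclei of the Foxp2/Gata3 cluster, 166 other neurons and 5416 oligodendrocytes. The shares became 9.26% in the Foxp2/Gata3 cluster, 0.195% in other neurons and 0.0439% in oligodendrocytes.

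Tal1 was concentrated in few clusters. Of the 123 neurons with a Tal1 UMI, 14.6% lay in the Foxp2/Gata3 cluster, 33.3% in the Tal1/Nell1 cluster and 26.0% in the Gata3/Crhbp cluster, and 108 of 134 clusters had none. Mean levels were 49.9, 44.1 and 31.3 CPM in these 3 clusters, and the next cluster owed its 14.9 CPM to 1 nucleus. The first and second in this order did not differ beyond their spread, since Tal1 was higher in the Foxp2/Gata3 cluster than in the Tal1/Nell1 cluster in 2 of 4 libraries (log2 ratio 0.17). Without control replicate 2 the ratio turned to −0.16, so the first rank rests on that library. Outside neurons Tal1 reached 71.9 CPM in the Tmem119 immune cells and 67.6 CPM in endothelial cells. Of the 11 endothelial and blood cell markers, 8 were at 0 in the Foxp2/Gata3 cluster (among them Pecam1, Cldn5, Cdh5 and Gata1), and their summed level was 14.5 to 36.3 CPM, against 17.3 to 41.8 CPM in other neurons. Of the 5 microglia and macrophage markers, 4 had UMIs, with a summed level of 240, 174, 115 and 232 CPM, above that of other neurons (147 to 164 CPM) in 3 of 4 libraries. Most of it was P2ry12, a purinergic receptor gene (171 against 125 CPM) that lies within Med12l on the opposite strand, so its reads are uncertain, whereas Tmem119 and Csf1r had 1 UMI each and F13a1 none. Ttr, a transcript of the choroid plexus, had 0, 1168, 6.04 and 813 CPM (1002 and 580 CPM in other neurons of the same 2 high libraries and at most 7.54 CPM in the others). The 2 libraries high in Ttr were replicate 2 of each group, and in these Tal1 exceeded its level in the Tal1/Nell1 cluster. The part of these markers in the Tal1 level was not tested.

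**Figure D1:**
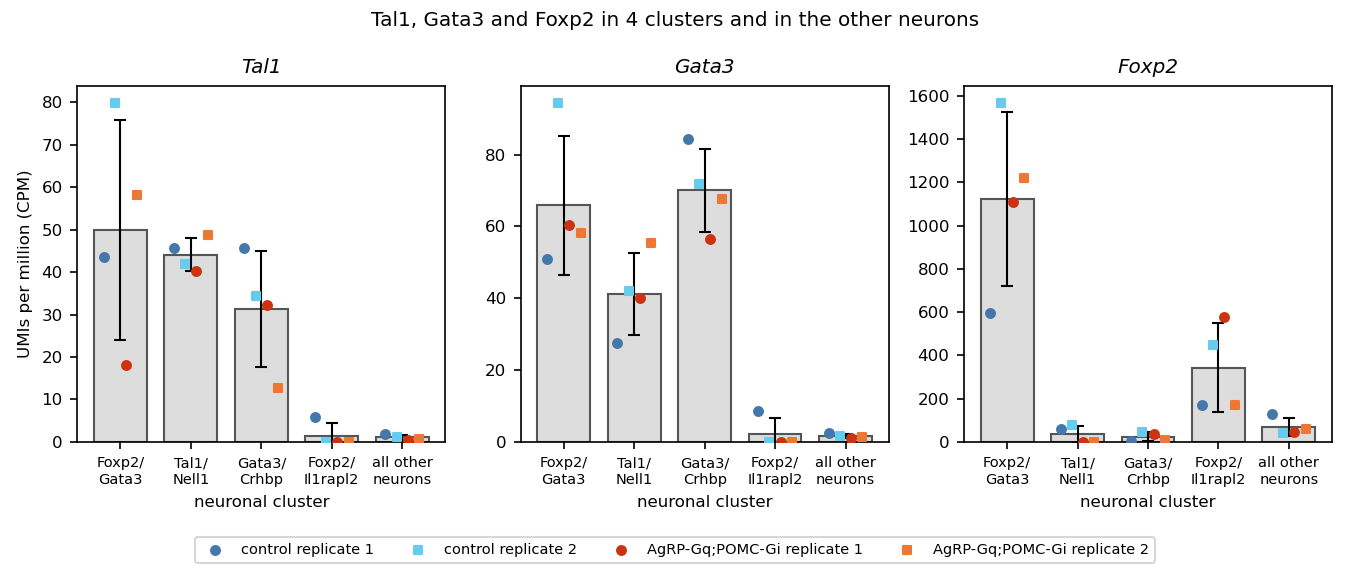
CPM of Tal1, Gata3 and Foxp2 in the Foxp2/Gata3, Tal1/Nell1, Gata3/Crhbp and Foxp2/Il1rapl2 clusters and in the other neurons (bars, mean of 4 libraries; error bars, SD; points, libraries). Tal1 and Gata3 stood high in the Foxp2/Gata3, Tal1/Nell1 and Gata3/Crhbp clusters, whereas Foxp2 was high in the Foxp2/Gata3 cluster (1124 CPM) and lower in the Foxp2/Il1rapl2 cluster (342 CPM).

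Gata3 (chr2:9857078-9890034, minus strand) was the other leading factor. Its levels were 50.9, 94.3, 60.4 and 58.1 CPM in the Foxp2/Gata3 cluster (65.9 ± 19.4, SD, n = 4), against 1.60 CPM in other neurons, and ranked second after the Gata3/Crhbp cluster (70.1 CPM). Gata3 was higher than in the Tal1/Nell1 cluster (41.2 CPM) in 4 of 4 libraries, with a log2 ratio of 0.66. The fourth in order was the serotonergic Tph2/Slc6a4 cluster, with 31.6 CPM. Gata2 had 14.5, 14.5, 0 and 19.4 CPM and was found in 5 of 54 nuclei, against 0.641% of other neurons. Tal1, Gata3 or Gata2 was detected in 32 nuclei (59.3%), and Tal1 and Gata3 together in 6 of the 18 nuclei with Tal1.

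**Figure D2:**
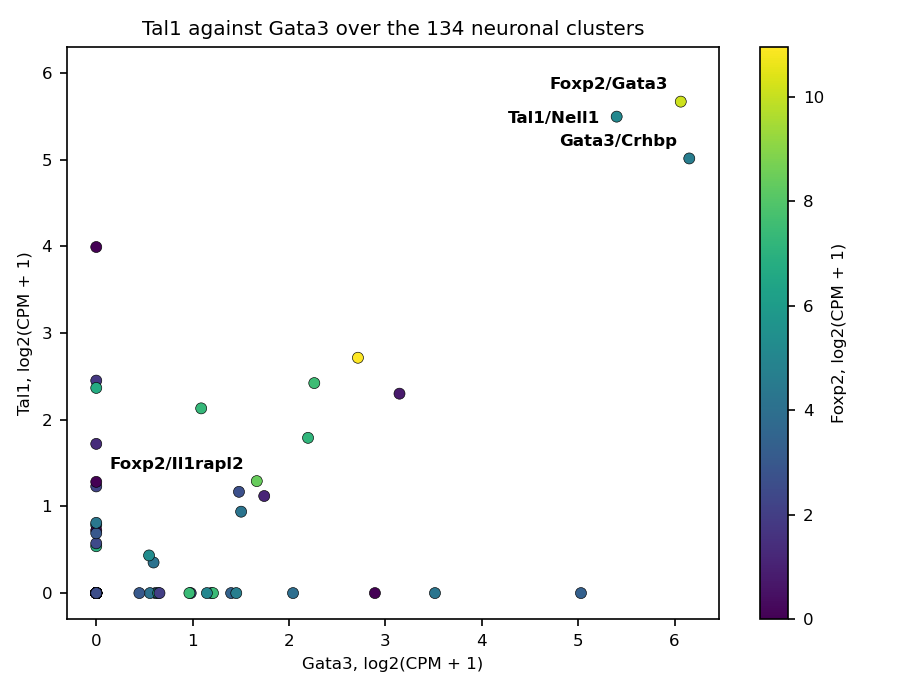
Tal1 against Gata3 in the 134 neuronal clusters, as log2 of mean CPM plus 1, with colour for Foxp2 on the same scale. The Foxp2/Gata3, Tal1/Nell1 and Gata3/Crhbp clusters stood high in both genes together, and of these 3 the Foxp2/Gata3 cluster had the most Foxp2. In Gata3 alone the Tph2/Slc6a4 cluster lay close to them (31.6 CPM, with 0 CPM of Tal1).

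The windows of 250 bases before the RefSeq starts of Tal1 and Gata3 are shown because both genes led the cluster (GRCm38.p6, each 5′ to 3′ on the strand of its gene). Capitals mark a GATA box, searched on both strands as GATAA or GATAG with an A or a T before it.
Tal1, chr4:115056176-115056425, plus strand: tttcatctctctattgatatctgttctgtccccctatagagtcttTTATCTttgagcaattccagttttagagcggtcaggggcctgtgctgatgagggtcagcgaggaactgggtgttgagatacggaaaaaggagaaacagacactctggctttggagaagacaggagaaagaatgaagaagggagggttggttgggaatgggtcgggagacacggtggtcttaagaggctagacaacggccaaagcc
Gata3, chr2:9878601-9878850, minus strand: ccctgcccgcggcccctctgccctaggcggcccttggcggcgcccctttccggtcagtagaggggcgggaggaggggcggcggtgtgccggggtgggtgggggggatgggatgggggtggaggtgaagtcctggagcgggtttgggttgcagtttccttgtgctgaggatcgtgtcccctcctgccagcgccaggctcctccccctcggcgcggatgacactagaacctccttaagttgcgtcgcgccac
The Tal1 window held 1 GATA box, 205 bases before the start, and the Gata3 window held 0, as did a window at a second Tal1 start. A GATA box stood in 26.5% of 32851 windows of this length. The E box CAGATG was in none of the windows of these genes and in 14.4% of all windows.

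Foxp2, a forkhead repressor (chr6:14901349-15441977, plus strand), set the Foxp2/Gata3 cluster apart from the Tal1/Nell1 cluster. It had 596, 1567, 1111 and 1220 CPM (1124 ± 402, SD, n = 4), with a UMI in 40 of 54 nuclei (74.1%). Other neurons had 67.5 CPM (8.43% of nuclei) and the Tal1/Nell1 cluster had 33.9 CPM, so the log2 ratios were 4.04 and 5.01. Without control replicate 1 the ratio over other neurons was 4.76 (4.70 with the other clusters weighted equally), and without control replicate 2 that over the Tal1/Nell1 cluster was 5.61. Only the Ano2/Foxp2 cluster had a higher mean (1989 CPM). Foxp2 was found in 24 of the 32 nuclei with Tal1, Gata3 or Gata2, close to its share of all nuclei (40 of 54). None of the 4 genes was found in 6 nuclei. The related factor Foxp1 had 756, 762, 870 and 968 CPM, the highest mean of all clusters (839 CPM, against 221 CPM in other neurons). It was seen in 92.6% of nuclei, against 74.7% of other neurons.

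Among the 12685 genes detected, 5.44% were higher and 14.7% lower in the Foxp2/Gata3 cluster than in other neurons in 4 of 4 libraries. No p-value is given for these differences, because clusters were built from expression. The shares of all genes, set beside those of each list, were not matched to the lists in level. Of the 22 genes listed for the TAL1 complex, 19 were detected, with 4 higher, 6 lower and a median log2 ratio of 0.02 (all genes, −0.07). The 4 were Tal1, Gata3, the corepressor Cbfa2t3 and the GATA cofactor Zfpm2. Cbfa2t3 had 65.4, 29.0, 60.4 and 58.1 CPM, against 9.94 CPM in other neurons, with a log2 ratio of 1.67 over the Tal1/Nell1 cluster. Zfpm2 averaged 435 CPM, above other neurons (223 CPM) and below the Tal1/Nell1 cluster (1241 CPM). The E-protein genes Tcf4 and Tcf12, whose products pair with TAL1, were among the 6 lower (41.7 against 357 CPM, and 148 against 265 CPM). Tal2 and Lyl1, the closest relatives of Tal1, had 0 UMIs.

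Of 96 factors of other lineages 45 were detected, with 4 higher (8.89%), 21 lower (46.7%) and a median log2 ratio of −1.03, against 5.44% and 14.7% of all genes. The 4 were Foxp1, Foxp2 and the homeobox genes Meis1 (387 against 203 CPM) and Meis2 (934 against 350 CPM). Ebf1, a helix-loop-helix factor, had 20.0 against 531 CPM, and its relatives Ebf2 and Ebf3 had 0 and 1.51 CPM. Pax2, which marks other inhibitory neurons, had 29.1, 14.5, 0 and 0 CPM, against 60.5 CPM in other neurons. Of 10 Hox genes detected, which record position along the neuraxis, 1 was higher (Hoxd3, 70.2 against 26.2 CPM) and 6 lower (60% of those detected, against 14.7% of all genes), among them Hoxb4 (1.51 against 27.1 CPM).

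The Foxp2/Gata3 cluster carried the genes of GABA and glycine release. Gad2, a GABA-synthesising enzyme, had 182, 210, 205 and 252 CPM (other neurons, 94.9 CPM), and the neuronal glycine transporter gene Slc6a5 had 145, 116, 230 and 194 CPM (82.9 CPM). Both were higher in 4 of 4 libraries. The vesicular transporter gene Slc32a1 had 79.9, 36.3, 24.2 and 58.1 CPM, with 3 of 4 libraries above their other neurons. Gad1, Gad2 or Slc32a1 was detected in 48 nuclei (88.9%), Slc6a5 in 41 (75.9%) and both kinds in 36 (66.7%). The same shares in other neurons were 50.2%, 32.5% and 28.1%. In oligodendrocytes, which should lack these genes, Slc6a5 was found in 1.39%, Gad2 in 3.03% and Slc32a1 in 2.82%. The glutamate transporter gene Slc17a6 had 2 UMIs, in 2 nuclei (3.02 against 76.3 CPM in other neurons). Over the transmitter list, 11 of 26 genes were detected, 4 of them higher (36.4%, against 5.44% of all genes) and 1 lower (9.09%, against 14.7%), with a median of 0.74, and Chat, Th, Tph2 and Slc17a7 had 0 UMIs. Against the Tal1/Nell1 cluster, 0 of 11 were higher and 3 lower in 4 of 4 libraries (27.3%, against 12.1% of all genes). The Gata3/Crhbp cluster had more Slc6a5, at 241 CPM.

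Genes of CSF-contacting neurons had fewer UMIs than in the Tal1/Nell1 cluster. Pkd2l1 had a UMI in 0 of 54 nuclei, which allows a share of nuclei with a UMI, not of nuclei that express it, of up to 6.60% (exact 95% interval), and in 24 of 113 nuclei of the Tal1/Nell1 cluster, from all 4 libraries (2, 2, 7 and 13). Pkd2l1 was also found in 0.617% of other neurons and in 13.1% of oligodendrocytes (64.7 CPM), whose median depth was 2460 UMIs against 8968 in the Tal1/Nell1 cluster. Against a floor of 3 UMIs over the cluster, Pkd2l1 was at least 24.5-fold lower than in the Tal1/Nell1 cluster and Pkd1l2 at least 11.9-fold lower. Espn, an actin-bundling protein gene, had 1.51 CPM, against 47.8 CPM in the Tal1/Nell1 cluster. Of the 7 genes listed, 4 were seen in at least 5% of nuclei, and these only in the Tal1/Nell1 cluster. Of these, 3 were lower in the Foxp2/Gata3 cluster in 4 of 4 libraries (12.1% of all genes). Because the 4 entered through the Tal1/Nell1 cluster alone, that share adds no support.

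**Figure D3:**
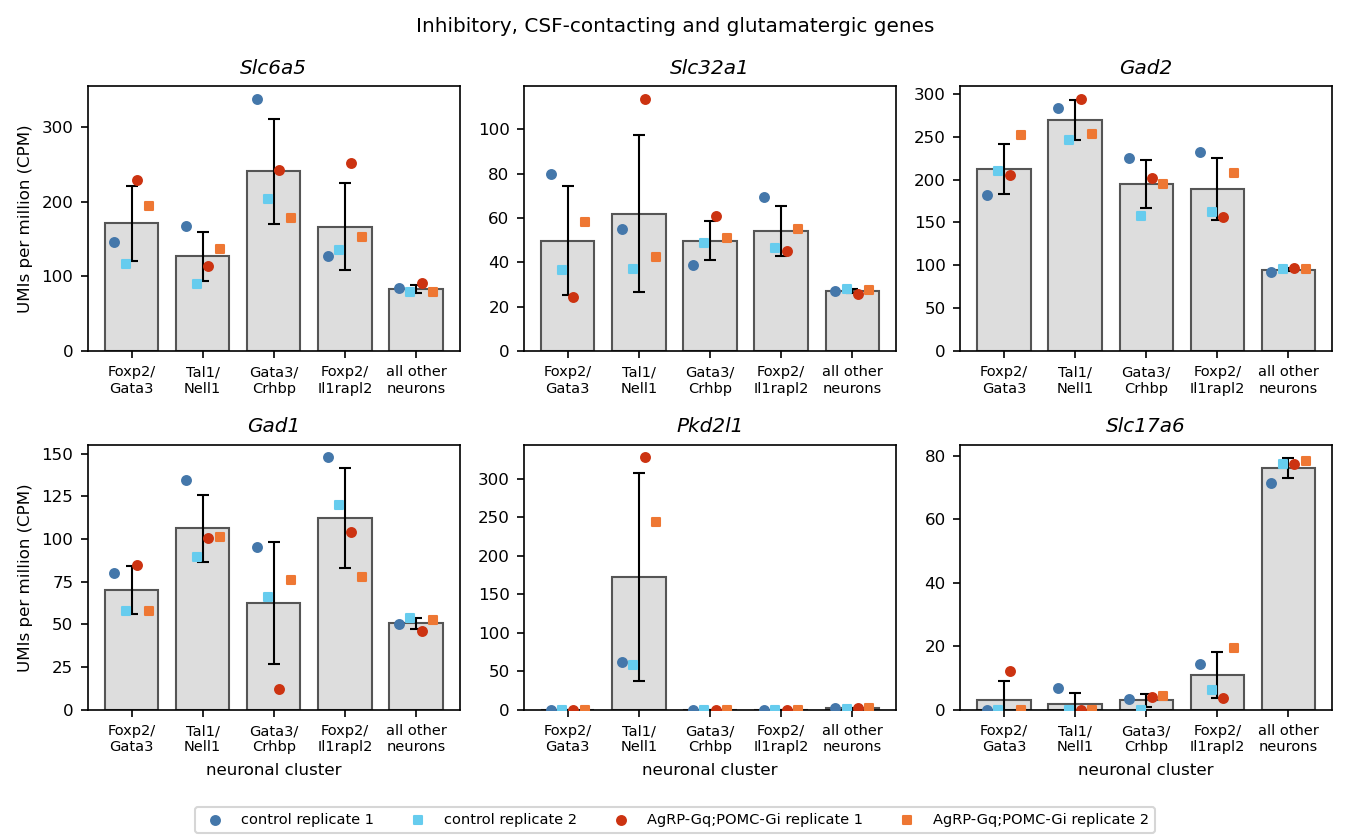
CPM of inhibitory genes (Slc6a5, Slc32a1, Gad2, Gad1), the CSF-contacting neuron gene Pkd2l1 and the glutamatergic gene Slc17a6 in the same 4 clusters and the other neurons (bars, mean; error bars, SD; points, 4 libraries). The Foxp2/Gata3 cluster had Gad2 (212 CPM) and Slc6a5 (171 CPM) and no Pkd2l1, which the Tal1/Nell1 cluster had at 173 CPM.

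The 25 genes that led the Foxp2/Gata3 cluster against other neurons included, beside the factors, matrix, adhesion and receptor genes, 5 noncoding genes and others such as Utrn, which encodes the cytoskeletal protein utrophin (407 against 147 CPM). The extracellular matrix genes were Frem1 (36.3 against 6.27 CPM), Col16a1 (161 against 38.1 CPM) and Vcan (89.2 against 21.1 CPM). All of the 25 were higher in every library, as their choice required. Vcan also marks oligodendrocyte precursors, whose other markers Pdgfra and Cspg4 were at 0 in the Foxp2/Gata3 cluster. The receptor genes were Adgra3, an adhesion receptor (60.8 against 12.6 CPM), and Gpr139, a receptor for aromatic amino acids (56.9 CPM, log2 ratio 2.05). Il1rapl2, a synaptic adhesion gene of the interleukin-1 receptor family, had 1003, 2228, 1667 and 1955 CPM, against 432 CPM in other neurons, and was found in 63.0% of nuclei. Lamp5 (201 against 65.6 CPM) and Col16a1 had their highest mean of all clusters here. The clock-related factor Hlf had 66.8 against 22.8 CPM.

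The last of the 25 leading genes by log2 ratio was Gm44257 (1.45), and the next after it were Arhgap42 (1.44), Map3k1 (1.42) and Epha4 (1.41). Several noncoding genes among the 25 overlap others, so their reads are uncertain. Gm48006 lies antisense within Cacna2d3, which was itself higher (1376 against 523 CPM), and 4930598N05Rik overlaps Gm28905 on the same strand.

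Against the Tal1/Nell1 cluster, of 12715 genes 5.10% were higher and 12.1% lower in the Foxp2/Gata3 cluster in 4 of 4 libraries. After Foxp2 the highest ratios were those of the nuclear factor Tox (202 against 19.3 CPM), the guidance ligands Sema3a (164 against 16.5 CPM), Slit3 (141 against 19.7 CPM) and Sema3c (52.6 against 8.17 CPM), and Il1rapl2 (1713 against 190 CPM). Tox and Sema3a varied widely among libraries, from 36.3 to 329 CPM and from 77.4 to 341 CPM, whereas Slit3 stayed between 131 and 151 CPM. Neto2, an auxiliary subunit of kainate receptors, had 235 against 53.0 CPM.

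Genes lower than in the Tal1/Nell1 cluster included several at or near 0. Gnasas1, antisense to Gnas, and the kainate receptor gene Grik3 had 0 UMIs, which was at least 16.3-fold and at least 11.5-fold lower. Grik3 was also 0 against 76.6 CPM in other neurons. Gpc5, a glypican, had 21.8, 36.3, 48.3 and 0 CPM, against 2311 CPM in the Tal1/Nell1 cluster, and its antisense neighbour Gm20713 had 8.16 against 495 CPM. Reln, which encodes the secreted protein reelin, had 3.02 against 115 CPM, and Cdh23, a cadherin of hair cells, 1.82 against 112 CPM. Of the zinc-finger factors St18 had 11.5 CPM (log2 ratio −3.61) and Zfp521 had 11.8 against 101 CPM.

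**Figure D4:**
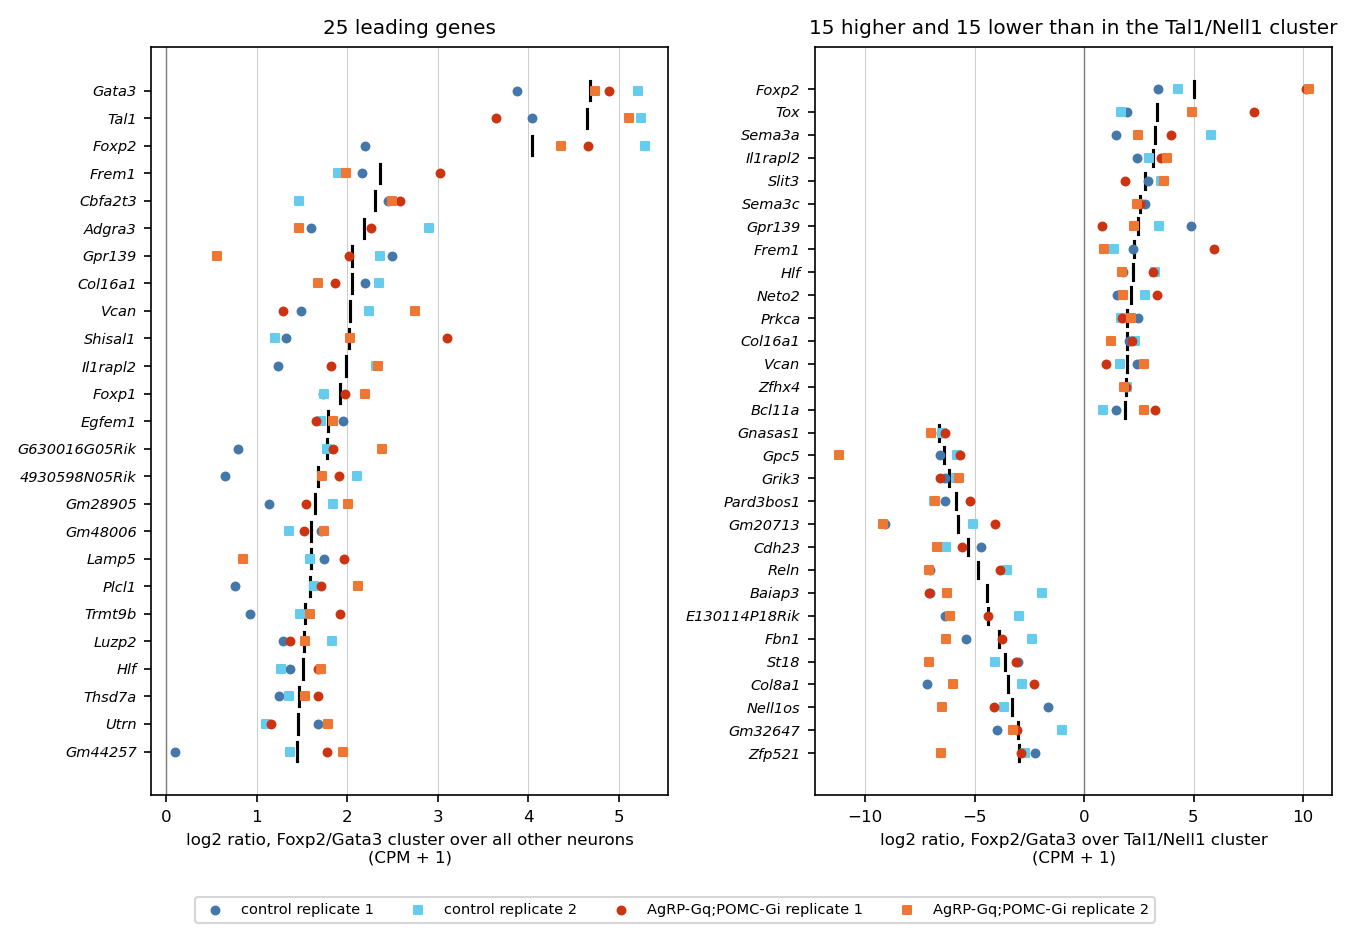
Log2 ratio of CPM plus 1 in the Foxp2/Gata3 cluster over the other neurons for the 25 leading genes, and over the Tal1/Nell1 cluster for the 15 highest and 15 lowest genes (points, 4 libraries; black lines, ratio of the means). Every point lay on the side of 0 by which its gene was chosen, and Gata3, Tal1 and Foxp2 led on the left.

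The receptor and channel lists were read against all genes, of which 5.44% were higher and 14.7% lower. Of 27 peptide and hormone receptor genes detected, 1 was higher, the opioid receptor gene Oprm1 (218, 116, 266 and 368 CPM, against 105 CPM in other neurons), and 9 were lower (33.3%), among them the growth hormone receptor gene Ghr (47.5 against 161 CPM). Of 16 monoamine and acetylcholine receptor genes 1 was higher, the serotonin receptor gene Htr2c (1362 against 733 CPM), and 3 lower (6.25% and 18.8%). Of 19 GABA and glycine receptor genes 1 was higher, Gabrb2 (303 against 154 CPM), and 4 lower (5.26% and 21.1%), so both of these lists lay near the share of all genes. Of 24 glutamate receptor genes 3 were higher, among them Grin2c (30.2 against 9.27 CPM), and 8 lower (12.5% and 33.3%).

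Among 55 excitability channel genes, 3 were higher (5.45%) and 20 lower (36.4%). The sodium channel gene Scn9a (950 against 519 CPM) and the calcium channel subunit gene Cacna2d3 were higher, and the related subunit gene Cacna2d1 had 10.3 against 508 CPM. Cacna2d1 was as low in the Tal1/Nell1 cluster (10.0 CPM). None of the 17 neuropeptide genes detected was higher and 8 were lower (47.1%), among them the somatostatin gene Sst (11.8 against 30.2 CPM) and the enkephalin gene Penk (5.14 against 43.0 CPM). Of 10 calcium-binding protein genes 0 were higher and 2 lower, near the share of all genes.

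Of 74 adhesion and guidance genes 20 were higher and 23 lower (27.0% and 31.1%, against 5.44% and 14.7% of all genes). Neither held for 31 of the 74, against 10125 of 12685 of all genes, so both shares exceeded those of all genes. Among the 20 were Nrxn3, a presynaptic neurexin (10175 against 4325 CPM), Tenm3, a teneurin (1375 against 580 CPM), and Cdh8, a cadherin (730 against 298 CPM). Tenm1 (264 against 696 CPM) and the protocadherin gene Pcdh11x (87.4 against 372 CPM) were lower.

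Across all 12114 genes compared, the profile of log2 ratios was most like that of the Foxp2/Il1rapl2 cluster (Pearson r = 0.253), and the Tal1/Nell1 cluster ranked eighth (r = 0.202). Over 58 transcription factors and cofactors, the Foxp2/Il1rapl2 (r = 0.681) and Gata3/Crhbp (r = 0.650) clusters were nearest and the Tal1/Nell1 cluster had r = 0.482. The Ano2/Foxp2 cluster had rank 3 over these genes (r = 0.620) but rank 36 over all genes (r = 0.063). Both comparisons kept only genes seen in at least 5% of other neurons, so Tal1, Gata3 and Gata2 were left out, whereas Foxp2 and Foxp1 stayed in. These are correlations across genes, which are not independent, between clusters that share their libraries. The Foxp2/Il1rapl2 cluster lacked the Tal1 side of the pattern, with 1.45 CPM of Tal1 and 2.17 CPM of Gata3.

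The 54 nuclei were not uniform. The 40 nuclei with a Foxp2 UMI had 2252 CPM of Il1rapl2 and 18 of them a Cbfa2t3 UMI, whereas the 14 without had 173 CPM and 0, at a higher median depth (10375.5 against 7526.5 UMIs). Gad2 was near equal in both, at 195 and 231 CPM. These and the following sets were chosen after their values were seen and carry no test.

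Sox2ot, a long noncoding RNA gene around Sox2, had all its 128 UMIs in 5 nuclei, 4 of control replicate 1 and 1 of control replicate 2. These 5 nuclei had 0 UMIs of Slc6a5, 51.1 CPM of Foxp1 and 1787 CPM of Lhfpl3, with 408 CPM of Gad2. A further 10 nuclei, 1, 2, 5 and 2 by library, each had at least 10 UMIs of the zinc-finger gene Zfp804b. They held 344 of its 374 UMIs and 309 of 502 of the contactin gene Cntn4, and 4 of the 10 had Foxp2. Cpne4, a calcium-binding copine gene, had a UMI in 11 nuclei. Of these, 4 were among the 10 with Zfp804b (16 to 61 UMIs) and had 0 UMIs of Foxp2, whereas the other 7 had 0 UMIs of Zfp804b and all had Foxp2 (3183 CPM) and Il1rapl2 (4717 CPM). The remaining 32 nuclei had Foxp2 at 1140 CPM, Slc6a5 at 201 CPM and Tal1 at 57.5 CPM. Tal1 had 51.1 CPM in the Sox2ot set (2 UMIs), 57.5 CPM in the 7 Cpne4 nuclei (3 UMIs) and 16.2 CPM in the Zfp804b set (2 UMIs in 2 of 10 nuclei). It had 56.4 CPM in nuclei with Foxp2 (20 UMIs) against 21.7 CPM in those without (3 UMIs). Counts this low do not order the sets by Tal1.

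**Figure D5:**
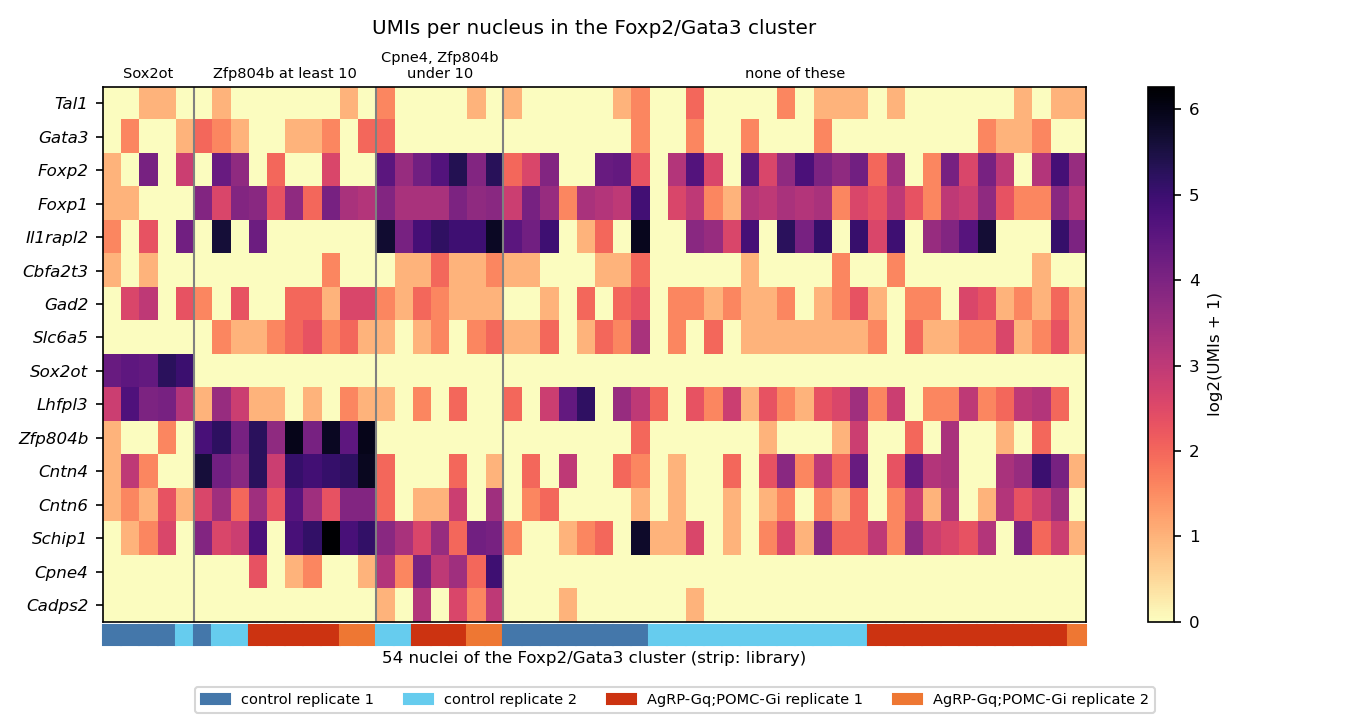
UMIs of 16 genes in each of the 54 nuclei of the Foxp2/Gata3 cluster, as log2 of UMIs plus 1 (colour), ordered by the sets named above the columns, with the library in the strip below. The 5 Sox2ot nuclei were all from control libraries, the 10 Zfp804b nuclei also held most UMIs of Cntn4, and the Cpne4 set holds the 7 nuclei with a Cpne4 UMI and under 10 Zfp804b UMIs.

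Whether the groups differed in the Foxp2/Gata3 cluster was asked first of its size. Its share of neurons was 0.526% (exact 95% interval 0.281 to 0.898%), 0.621% (0.362 to 0.993%), 0.514% (0.310 to 0.802%) and 0.137% (0.0447 to 0.321%), and AgRP-Gq;POMC-Gi replicate 2 was below the other 3. The log2 fold change between groups was −0.81 (SE 0.68, edgeR quasi-likelihood test, adjusted p = 0.755 over 134 clusters). No cluster passed that test (0%), and 8 had an unadjusted p under 0.05. The change ranged from −2.03 without AgRP-Gq;POMC-Gi replicate 1 to −0.16 without replicate 2, and was −0.30 as a share of all kept nuclei.

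Between groups 6 of 11532 genes passed edgeR's quasi-likelihood test (0.0520%, adjusted p under 0.05), 5 higher and 1 lower in AgRP-Gq;POMC-Gi libraries, and 501 genes (4.34%) had an unadjusted p under 0.05. Zfp804b had 33, 60, 199 and 82 UMIs (240, 435, 1202 and 1588 CPM; log2 fold change 2.03, SE 0.33, adjusted p = 0.0179 by edgeR). The contactin gene Cntn6 had 138, 203, 634 and 736 CPM (log2 2.01, SE 0.34, adjusted p = 0.0287 by edgeR). Groups did not overlap in either gene, but both genes were chosen by this test, so that adds no support. Both genes were also higher in the 2 AgRP-Gq;POMC-Gi libraries of the Tal1/Nell1 cluster. There Zfp804b had 365, 357, 1038 and 761 CPM, and Cntn6 had 174, 194, 234 and 312 CPM.

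Schip1, a cytoskeletal gene, rose from 603 and 493 CPM to 1510 and 1839 CPM (log2 1.61, SE 0.29), and Cntn4 from 523 and 617 CPM to 1504 and 1859 CPM (log2 1.56, SE 0.29). Their adjusted p was 0.0360 and 0.0432 (edgeR). Cpne4 had 0, 10, 40 and 34 UMIs (log2 3.42, SE 0.62, adjusted p = 0.0360 by edgeR), and its log2 change ranged from 2.45 to 8.54 with 1 library left out, the highest without control replicate 2, which held all its control UMIs. Sox2ot had 97, 31, 0 and 0 UMIs, at least 33.6-fold lower against a floor of 3 UMIs over the AgRP-Gq;POMC-Gi libraries (adjusted p = 0.00128 by edgeR). In the Tal1/Nell1 cluster Cntn4 was also higher in both AgRP-Gq;POMC-Gi libraries (719, 886, 1694 and 1038 CPM). Schip1 was lower and Sox2ot higher there, and the groups of Cpne4 overlapped (29.7, 110, 6.69 and 58.6 CPM). Group effects within the Tal1/Nell1 cluster alone were not tested.

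The UMIs of 3 of these 6 genes, which also define the sets of nuclei above, lay in few nuclei. The 5 nuclei with the most UMIs held 100% of those of Sox2ot, 84.5% of Cpne4 and 67.4% of Zfp804b. Schip1, Cntn4 and Cntn6 were spread more widely, with 45.2%, 42.0% and 37.4% of UMIs in 5 nuclei and a UMI in 45, 37 and 39 of 54, although the 10 nuclei with at least 10 Zfp804b UMIs held 249 of 496, 309 of 502 and 97 of 190 of their UMIs. Nuclei with at least 10 Zfp804b UMIs were 3 of 30 in control and 7 of 24 in AgRP-Gq;POMC-Gi libraries. Different shares of such nuclei in a library and different levels within nuclei cannot be told apart in the summed counts. No gene passed edgeR's test without AgRP-Gq;POMC-Gi replicate 1 or without replicate 2, with 298 and 323 genes at an unadjusted p under 0.05, although the log2 change over all alternatives stayed at 1.66 to 2.53 for Zfp804b, 1.75 to 2.32 for Cntn6, 1.48 to 1.76 for Schip1 and 1.44 to 1.69 for Cntn4. Such a fit leaves 1 AgRP-Gq;POMC-Gi library, assumed to vary like the controls. No gene passed either without TMM factors, the scaling between libraries (519 genes at an unadjusted p under 0.05) or without a filter on genes (411 genes at an unadjusted p under 0.05), and DESeq2 called 3 of the 6 genes. Of 5 astrocyte markers 4 had UMIs and Gfap none, and their summed level by library was 36.3, 36.3, 24.2 and 0 CPM (46.2 to 84.5 CPM in other neurons). The summed level of the 5 oligodendrocyte markers did not overlap between groups, with 189, 203, 109 and 116 CPM, and the same held in other neurons (274, 230, 134 and 170 CPM). The median percent of mitochondrial UMIs was 0.124, 0.109, 0.0457 and 0.0948. The part of these in the calls was not tested.

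Among the lists, 0 of 19 genes of the TAL1 complex, 0 of 33 lineage factors, 0 of 10 transmitter genes and 0 of 55 channel genes tested passed edgeR's test between groups, with 1, 6, 1 and 6 at an unadjusted p under 0.05. Of 71 adhesion and guidance genes 2 passed, Cntn4 and Cntn6, and 16 had an unadjusted p under 0.05 (of all genes, 0.0520% and 4.34%). Median log2 fold changes were −0.48 in the TAL1 complex, −0.36 in lineage factors and −0.12 over all genes. The largest median was that of the neuropeptides, 1.18 over 13 genes tested, of which 0 passed and 2 had an unadjusted p under 0.05.

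Immediate early genes, whose transcripts rise with neuronal activity, mostly had few UMIs. Fos had 0, 0, 4 and 0 UMIs, all 4 in 1 nucleus, Jun 1, 7, 6 and 0, and Nr4a1 1, 0, 5 and 1. Homer1 was detected in every library, with 11, 7, 14 and 2 UMIs (79.9, 50.8, 84.6 and 38.7 CPM), and its groups overlapped (log2 fold change 0.20, SE 0.56, adjusted p = 0.981 by edgeR). Of the 10 genes the study used to score activity, 5 were tested and 0 passed, and 1, 1700016P03Rik, had an unadjusted p under 0.05 (0.0320, adjusted p = 0.981 by edgeR, with 8 of its 9 UMIs in AgRP-Gq;POMC-Gi replicate 1). A p that missed the threshold at these counts does not show that the groups were alike.

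Group effects were then compared between the Foxp2/Gata3 and Tal1/Nell1 clusters in 1 edgeR model with library as a block. The effects differed in 10 of 12715 genes (0.0786%), 6 with a higher and 4 with a lower effect in the Foxp2/Gata3 cluster. Sox2ot was among the latter, with 119, 32, 81 and 159 UMIs in the Tal1/Nell1 cluster, where it was present in every library. Foxp2 was among the former. The Tal1/Nell1 cluster had 25, 15, 0 and 0 Foxp2 UMIs, from 7, 3, 0 and 0 nuclei, whereas the Foxp2/Gata3 cluster had 82, 216, 184 and 63. Schip1 had 242, 123, 56 and 116 UMIs in the Tal1/Nell1 cluster (553, 645, 375 and 377 CPM), so its level there was lower in the AgRP-Gq;POMC-Gi libraries.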

How the data were processed

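The authors prepared 4 single-nucleus libraries with the 10x Genomics 3′ kit, counted with Cell Ranger 7.0.0 on GRCm38, clustered with Seurat 4.3.0 on an scVI embedding adjusted for sample, and removed barcodes under 800 UMIs, under 500 genes or over 10% mitochondrial RNA. The deposited matrices hold raw UMI counts per gene and nucleus, and the authors' table of nuclei gives a percent of mitochondrial UMIs, clusters and cell types, which were taken over. Columns with the authors' activity score and category per cluster hold their own comparison and were not used. Doublets had been marked by the authors, and no caller was run here. The number of per-sample columns not used was 0.

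UMIs were summed per library and cluster. Levels are CPM, and ratios are of mean CPM plus 1. Groups were tested with edgeR 4.0.16 (quasi-likelihood, TMM, two-sided, Benjamini-Hochberg) in R 4.3.3, with DESeq2 1.42.0 as alternative. Genes seen in fewer than 5% of the nuclei were left out. Tests were tried on simulated data with a spread set in advance. The group test called 45.5% of 8-fold changes, planted only in genes above a set number of UMIs. The test of shares called 25% of clusters changed 4-fold, so real changes of such sizes can be missed. With 2 libraries per group an exact permutation test cannot go below p = 0.333. The replicate numbers did not pair the libraries in the labels. Gene positions are from GENCODE M21 and windows from RefSeq GRCm38.p6, which matched Tal1, Gata3 and Gata2. Strand use in counting is not given in the sources used here, so antisense overlaps are uncertain. Sums and figures were made with numpy 2.4.6, pandas 2.3.3, scipy 1.17.1 and matplotlib 3.10.9 (Python 3.11.15).

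The members and lists were chosen with earlier results of these data known. Named genes were the 25 with the highest ratio over other neurons and the 15 highest and lowest over the Tal1/Nell1 cluster (UMI in at least 25% of nuclei, same direction in 4 libraries), the listed genes, up to 10 calls per direction between groups and in the difference between clusters, and the study's 10 activity genes. The Gata3/Crhbp and Foxp2/Il1rapl2 clusters, the sets of nuclei and the overlap checks were added after the data were seen.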

Additional observations from a re-analysis of the deposited data

Results flagged for a closer look

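In 10 genes the effect of group in the Foxp2/Gata3 cluster differed from that in the Tal1/Nell1 cluster by edgeR's interaction test (adjusted p under 0.05, log2 difference, the Foxp2/Gata3 cluster minus the Tal1/Nell1 cluster). The differences were 7.02 for Foxp2, 4.74 for Cpne4, 4.12 for Trappc3, 3.59 for Cadps2, 3.14 for Ptprz1 and 2.29 for Schip1, and −10.70 for Sox2ot, −9.43 for Gm38505, −3.66 for Nell1 and −1.97 for Lhfpl3. Sox2ot and Gm38505 had 0 UMIs in both AgRP-Gq;POMC-Gi libraries of the Foxp2/Gata3 cluster, and Foxp2 had 0 in those of the Tal1/Nell1 cluster, so the size of these 3 differences depends on the prior count of the fit and is no bound. That of Cpne4 ranged from 4.27 to 9.32 with 1 library left out. Gm38505 overlaps Sox2ot on the opposite strand, so the pair may share reads. In the Foxp2/Gata3 cluster Cadps2 had 1, 2, 13 and 9 UMIs, 23 of the 25 in the 7 nuclei with a Cpne4 UMI and 0 Zfp804b UMIs. Nell1 had 42, 11, 4 and 0 UMIs in the Foxp2/Gata3 cluster and 227, 130, 132 and 192 in the Tal1/Nell1 cluster. Lhfpl3 had 1053, 493, 302 and 58.1 CPM in the Foxp2/Gata3 cluster. The differences of Foxp2, Cpne4, Schip1, Sox2ot and Gm38505 were called under all 6 alternatives, that of Nell1 under 4 (−8.36 to −2.32, adjusted p up to 1 by edgeR), that of Lhfpl3 under 3 (−3.84 to −1.27, adjusted p up to 1 by edgeR) and those of Ptprz1, Cadps2 and Trappc3 under 1 of 6. What lies behind them was not tested. With 2 libraries per group, single outlying libraries could not be assessed.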

How the results depend on the processing

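The level of Tal1 in the Foxp2/Gata3 cluster and its ratio over other neurons kept their direction under every alternative tried, and the log2 ratio to the Tal1/Nell1 cluster ranged from −0.16 (without control replicate 2) to 0.40 (without AgRP-Gq;POMC-Gi replicate 1) with 1 library left out. The share of nuclei with a Tal1 UMI was 9.26% after thinning. The count of 6 genes between groups became 0 without TMM factors (519 genes at an unadjusted p under 0.05), 3 with DESeq2, 0 without a filter on genes (411 at an unadjusted p under 0.05) and 7 with filterByExpr, and ranged from 0 to 15 when 1 library was left out. A replicate block raised it to 20, although the numbers share no stated batch. Deviations of same-numbered libraries had r = −0.01 over 11532 genes, which cannot show that these libraries share no batch. Ttr was high in replicate 2 of both groups and low in replicate 1 of both. The block gave a log2 change of −0.99 in the share of neurons (adjusted p = 0.882 by edgeR). The 10 genes that differed between clusters became 21 without TMM factors and 5 with filterByExpr, and 10 to 13 with 1 library left out, of which 5 to 7 were among the 10. The 5 nuclei of AgRP-Gq;POMC-Gi replicate 2 limit every comparison between groups, and causes of these shifts were not tested. Of values over other neurons 171 moved less than the spread between libraries and 4 more, and of values over the Tal1/Nell1 cluster 168 moved less and 12 more.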
